A study of Mus musculus with 6 samples.

Results

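The immunoglobulin heavy and light chain genes of the liver RNA-seq table were described here. They were chosen by their annotation and by their summed level: genes that GENCODE M21 lists as immunoglobulin constant regions or variable segments and whose raw counts, added over the 6 libraries, came to 10 or more. This rule kept 135 of the 55385 genes in the table, 12 constant regions and 123 variable segments (55 of the heavy chain, 65 of the kappa light chain and 3 of the lambda light chain). The table held 235 genes of these biotypes in all, of which 192 had at least 1 count and 43 had none. At the edge of the rule, 6 genes had a summed count of 10 and Igkv3-12 had 11, while Ighv2-9-1, Ighv3-1 and Ighv9-1 had 9 and 4 other genes had 8. A segment with no sham count needed 10 counts in the VSG libraries to be kept, so the number of members higher after surgery was partly set by the rule and is given as a description.

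The livers came from wild-type male mice, 6 to 8 weeks old at the start, that had received a high-fat diet (HFD) for 10 weeks. The mice then underwent either vertical sleeve gastrectomy (VSG), bariatric surgery in which a large part of the stomach is cut away, or a sham operation, and stayed on HFD for another 12 weeks, so that both groups ate the same diet throughout. Poly(A) RNA was sequenced from 3 sham livers (replicates 1 to 3) and 3 VSG livers (replicates 4 to 6), each library from 1 mouse. The comparison asks which of these transcripts differed in level between VSG and sham livers.

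Immunoglobulins are made by B cells and, in far larger amounts, by the plasma cells that B cells become. Each developing B cell joins 1 variable, diversity and joining segment of the heavy chain locus and 1 variable and joining segment of a light chain locus, and the joined exon is then spliced to a constant region that sets the class: Ighm for IgM, Ighd for IgD, Ighg1, Ighg2b, Ighg2c and Ighg3 for the IgG subclasses, Igha for IgA and Ighe for IgE. Hepatocytes do not make these transcripts, so in whole liver they come from lymphoid cells of the tissue and its blood. The heavy chain members lay on chromosome 12 (constant regions chr12:113254830-113422730, variable segments chr12:113588267-116000461, GRCm38), the kappa members on chromosome 6 (Igkc at chr6:70726435-70726966, variable segments chr6:67609713-70699067) and the lambda members on chromosome 16 (chr16:19061618-19260859).

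Among the variable segments, 4 are shown because they form a pair of textbook heavy and kappa combinations and because 3 of them (Ighv11-2, Igkv14-126 and Igkv4-91) had the largest fitted rises after VSG among the 31 segments with enough counts to be tested. Ighv11-2 with Igkv14-126, and Ighv12-3 with Igkv4-91, are known to recur in the IgM of B1 cells that bind phosphatidylcholine, a membrane lipid. Ighv12-3 was too low to be tested and was chosen after its values were seen. The sequences are the germline sense strand of GENCODE M21 transcripts, up to 300 bases ending at the 3′ end of the segment. Ighv11-2 is at chr12:114048241-114048540 (minus strand), Igkv14-126 at chr6:67896345-67896642 (plus strand), Ighv12-3 at chr12:114366521-114366820 (minus strand) and Igkv4-91 at chr6:68768555-68768854 (minus strand). Capitals mark the bases from the last in-frame cysteine codon to the end of the segment, where the third complementarity-determining loop begins: 11 bases in Ighv11-2, 14 in Ighv12-3, 26 in Igkv14-126 and 28 in Igkv4-91.
Ighv11-2: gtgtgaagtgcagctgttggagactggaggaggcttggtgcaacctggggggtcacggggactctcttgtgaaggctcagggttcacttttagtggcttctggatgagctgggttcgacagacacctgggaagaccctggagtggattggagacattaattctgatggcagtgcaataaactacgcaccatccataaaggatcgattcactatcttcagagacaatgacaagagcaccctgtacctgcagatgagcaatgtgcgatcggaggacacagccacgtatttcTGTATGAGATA
Igkv14-126: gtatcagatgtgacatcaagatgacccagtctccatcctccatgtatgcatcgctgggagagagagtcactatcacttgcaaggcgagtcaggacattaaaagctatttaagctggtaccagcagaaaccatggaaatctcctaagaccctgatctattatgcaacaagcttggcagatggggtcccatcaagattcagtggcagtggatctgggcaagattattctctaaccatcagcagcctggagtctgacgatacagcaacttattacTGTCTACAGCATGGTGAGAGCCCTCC
Ighv12-3: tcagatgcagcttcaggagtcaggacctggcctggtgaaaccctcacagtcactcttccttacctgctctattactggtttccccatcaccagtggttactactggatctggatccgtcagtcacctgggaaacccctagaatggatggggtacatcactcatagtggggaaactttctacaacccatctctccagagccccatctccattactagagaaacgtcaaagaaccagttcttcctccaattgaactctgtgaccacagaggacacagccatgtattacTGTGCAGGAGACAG
Igkv4-91: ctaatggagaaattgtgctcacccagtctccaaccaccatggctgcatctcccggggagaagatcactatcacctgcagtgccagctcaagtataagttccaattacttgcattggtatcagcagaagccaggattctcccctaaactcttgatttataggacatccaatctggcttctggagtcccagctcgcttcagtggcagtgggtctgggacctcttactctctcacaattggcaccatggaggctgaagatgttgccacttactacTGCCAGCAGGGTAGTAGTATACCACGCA

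Immunoglobulin transcripts were several-fold more abundant in every VSG liver than in any sham liver. The 135 members together held 47.7, 49.2 and 48.3 CPM (counts scaled to library size) in sham replicates 1, 2 and 3, and 516, 358 and 444 CPM in VSG replicates 4, 5 and 6. With TMM scaling the sham livers were close to each other (48.4 ± 0.731 CPM, SD, n = 3), the VSG livers varied more (440 ± 78.9 CPM, n = 3), and the ratio of the means was 9.08. As shares of total counts the sham livers were less alike, at 0.005463%, 0.004545% and 0.005258% in replicates 1 to 3. The ratio was 9.43-fold for the heavy chain, 9.66-fold for the kappa and 9.48-fold for the lambda variable segments. For the constant regions of all loci pooled it was 8.98-fold. Their parts differed more, at 8.66-fold for the heavy chain, 20.5-fold for the IgG and 6.2-fold for the lambda constant regions. Variable and constant parts of a chain lie on the same transcript, so these ratios are not independent of each other. The 99 variable segments that fell under the rule, which it left out for their low counts, were 8.60-fold higher when summed, from 0.334 ± 0.0356 to 2.88 ± 0.807 CPM. These folds are ratios of summed levels, with no test over members.

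Of the 135 members, 42 had enough counts to be tested (93 did not), and 32 of the 42 were higher in VSG livers at an adjusted p under 0.05, against 6.79% of the 14454 genes tested that were higher and 14.7% that were called in either direction. No member was called lower, where 7.87% of all genes were. With total counts in place of TMM scaling, the median log2 fold change of all genes moved by −0.14 and the calls over all genes changed from 981 higher and 1137 lower to 486 higher and 1512 lower. The members passed the filter on low counts largely through the VSG libraries (32 of the 42 only through them), so these had to differ. Over all 135, the 3 VSG libraries lay above the 3 sham libraries in 107 members and the groups overlapped in 28, where 18.9% of all genes with 10 or more counts, and 19.8% of those tested, were higher without overlap. Another 19.8% of the genes tested were lower without overlap, and no member was. The mean was higher after VSG in 134 members and lower in 1, Igkv1-88. Of the 123 genes of the whole table that were called higher with a log2 fold change of at least 3, 25 were immunoglobulin members.

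The kappa and mu constant regions carried the most counts. Igkc, the constant region of the kappa light chain, which most mouse antibodies use, had 320, 271 and 288 counts in sham replicates 1 to 3 and 2937, 2221 and 2637 in VSG replicates 4 to 6. The groups were far apart and each varied little within itself, and the mean rose from 11.7 ± 0.725 to 118 ± 20.2 CPM, a log2 fold change of 3.33 ± 0.157 (SE, adjusted p = 8.54e-04). Ighm, the heavy chain of IgM, the class that B cells make before switching, had 533, 377 and 633 sham counts and 3518, 2871 and 3452 VSG counts. All VSG libraries were well above the sham range, from 20.3 ± 3.46 to 149 ± 22.8 CPM, a log2 fold change of 2.87 ± 0.180 (adjusted p = 0.00177). Per length, these were also the most abundant constant regions, Igkc at 22.02 ± 1.36 FPKM (CPM per kilobase of exon) in sham and 222 ± 37.9 FPKM in VSG livers, and Ighm at 10.8 ± 1.83 and 78.9 ± 12.1 FPKM. Both were called under all 12 alternative analyses.

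**Figure D1:**
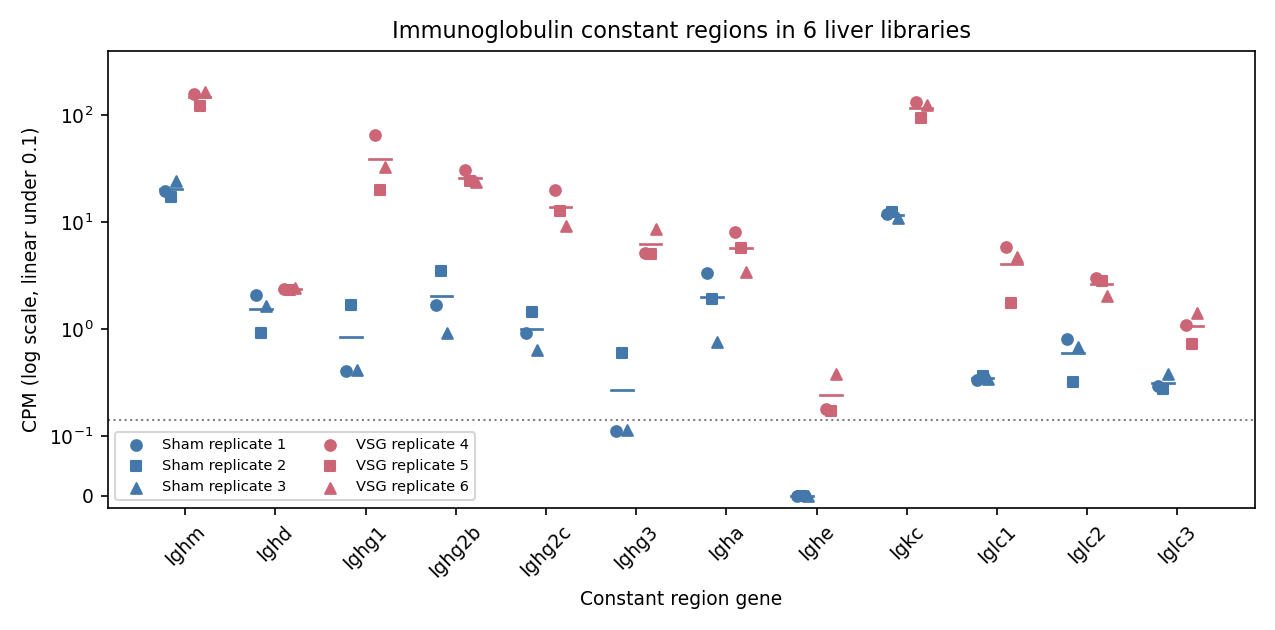
Level of the 12 constant region genes in each of the 6 liver libraries (CPM, log scale, linear under 0.1), with 1 marker per library, a bar at the mean of each group of 3, and a dotted line at the highest level that 3 counts stand for in any library. Each gene's 3 VSG libraries lie above its 3 sham libraries, and the gap is wide for Igkc, Ighm and the IgG genes and narrow for Igha and Ighd.

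The IgG subclasses, which B cells express after class switching, were scarce in sham livers. Ighg1 counts were 11, 37 and 11 in sham replicates 1 to 3, against 1433, 466 and 686 in VSG replicates 4 to 6. Its lowest VSG library was many times above the highest sham library, although VSG replicate 4 held 64.8 CPM against 19.9 in replicate 5, and the mean rose from 0.838 ± 0.738 to 39.2 ± 23.2 CPM (log2 fold change 5.59 ± 0.697, adjusted p = 0.00888). Ighg2b rose from 46, 77 and 24 counts to 672, 566 and 497 (log2 fold change 3.69 ± 0.437, adjusted p = 0.00792). Ighg2c, the C57BL/6 form of IgG2a, rose from 25, 32 and 17 to 440, 296 and 195 counts (3.80 ± 0.404, adjusted p = 0.00645). For both genes the VSG libraries were tight relative to the gap to sham, and both were called in all 12 alternatives. Ighg3 went from 3, 13 and 3 counts to 115, 119 and 181 (4.57 ± 0.607, adjusted p = 0.0101), with 2 sham libraries at the floor of 3 counts. The calls of Ighg1 and Ighg3 were lost without sham replicate 3 (adjusted p = 0.0549 and 0.0560), and that of Ighg3 also without VSG replicate 6 (0.0536), while their log2 fold changes stayed at 5.02 or more and 4.18 or more over the alternatives. Per length, Ighg1 stood at 15.1 ± 8.93 FPKM in VSG livers, Ighg2c at 10.5 ± 4.09, Ighg2b at 9.75 ± 1.40 and Ighg3 at 2.51 ± 0.802. The order of the first 3 was within their spread.

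Igha and Ighd did not pass the test. Igha, the heavy chain of IgA, the class of mucosal secretions, had 90, 42 and 20 sham counts and 178, 133 and 71 VSG counts. In CPM its lowest VSG library (3.39) was only just above its highest sham library (3.32), and the log2 fold change was 1.51 ± 0.543 (adjusted p = 0.105). DESeq2 gave an adjusted p of 0.0351 for it, the only alternative of 12 under the threshold. Ighd, which encodes the IgD receptor of mature B cells that have not switched class, had 56, 20 and 43 sham counts and 53, 54 and 51 VSG counts. Its levels, 2.31 to 2.43 CPM in VSG livers, were close to the 2.07 CPM of sham replicate 1, and the log2 fold change was 0.62 ± 0.315 (adjusted p = 0.213, not called in any of 12 alternatives). Ighe, the heavy chain of IgE, was too low to be tested. No sham library held a count, and the VSG libraries held 4, 4 and 8, at least 2.03-fold higher when the sham level is set at the floor of 3 counts per library.

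All 3 lambda constant regions were called higher, where 6.79% of all genes tested were. They passed the filter on low counts only through the VSG libraries, so a rise was partly set by the filter. Iglc1 had 9, 8 and 9 counts in sham and 129, 41 and 99 in VSG libraries (log2 fold change 3.55 ± 0.504, adjusted p = 0.0115), Iglc2 had 22, 7 and 18 against 67, 66 and 43 (2.10 ± 0.372, adjusted p = 0.0195), and Iglc3 had 8, 6 and 10 against 24, 17 and 30 (1.75 ± 0.367, adjusted p = 0.0286). Groups did not overlap for any of them. The calls of Iglc1 and Iglc2 were lost with sham replicate 3 (adjusted p = 0.0699 and 0.0899) or VSG replicate 6 (0.0569 and 0.0614) left out, and that of Iglc3 in 5 of the 6 fits that left out a library, with an adjusted p of up to 0.106. Iglc2 and Iglc3 are shown because they are nearly the same gene, so that reads could be split between them. Over 314 coding bases they differ at 11 (96.5% identity), and 300 of these bases are printed with the differing bases in capitals (GENCODE M21, GRCm38, minus strand, Iglc2 at chr16:19198553-19198852 and Iglc3 at chr16:19065382-19065681).
Iglc2: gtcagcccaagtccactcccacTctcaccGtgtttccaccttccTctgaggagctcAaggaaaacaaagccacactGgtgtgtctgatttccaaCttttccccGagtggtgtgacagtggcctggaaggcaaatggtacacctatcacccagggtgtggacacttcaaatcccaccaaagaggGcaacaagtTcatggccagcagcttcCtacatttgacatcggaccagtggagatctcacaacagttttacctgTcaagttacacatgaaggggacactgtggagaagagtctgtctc
Iglc3: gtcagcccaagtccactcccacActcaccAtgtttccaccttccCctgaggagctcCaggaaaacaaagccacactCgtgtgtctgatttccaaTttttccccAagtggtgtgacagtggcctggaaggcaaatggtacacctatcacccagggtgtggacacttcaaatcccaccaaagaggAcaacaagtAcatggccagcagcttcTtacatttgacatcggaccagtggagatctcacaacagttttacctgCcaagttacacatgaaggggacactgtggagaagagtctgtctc

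Of the 50-base windows of Iglc3, 22.3% also occurred in a transcript of another gene, immunoglobulin or not, and 7.65% of those of Iglc2. The share was 5.49% for Ighg2c and 4.15% for Ighg2b, and no window of Igkc, Ighm, Ighd, Igha, Ighe or Iglc1 was shared. Among the 123 variable segments, the median share was 22.2%, 23 segments shared none and 11 shared 50% or more, up to 74.3% for Igkv4-59. Values of single segments are therefore less certain than their sums.

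The heavy chain classes made up different shares of the counts, with no overlap between the groups for IgD and IgG. All switched classes together (IgG, IgA and IgE) did overlap, at 9.99% to 33.6% in sham and 31.9% to 44.3% in VSG libraries. IgD made up 7.33%, 3.34% and 5.73% of the heavy chain constant counts in sham replicates 1 to 3, and 0.826%, 1.20% and 0.992% in VSG replicates 4 to 6. IgG subclasses together made up 11.1%, 26.6% and 7.32% in sham and 41.5%, 32.1% and 30.3% in VSG libraries. Every VSG library thus held a smaller IgD share and a larger IgG share than every sham library, and the exact 95% binomial intervals of sham replicate 2 (23.1% to 30.3% IgG) and VSG replicate 6 (29.1% to 31.6%), the nearest pair, overlapped. Ighg1 alone went from 3.03% ± 2.73 to 15.3% ± 6.25 of the counts. The IgM share was 72.4% ± 10.9 (63.0% to 84.3%) in sham and 61.9% ± 6.33 (54.9% to 67.2%) in VSG livers, with overlapping ranges, and the ranges of the IgA share overlapped too (2.66% to 11.8% against 1.38% to 2.95%). Lambda constant regions made up 7.19% to 11.4% of the light chain constant counts in sham and 5.29% to 6.97% in VSG livers. Per length the ranges stood in the same order, with IgG at 6.93% to 24.2% in sham and 26.2% to 37.6% in VSG livers. The shares are given as a description and were not tested. The smallest p that an exact permutation test (two-sided) can give at this size is 0.1. The intervals cover counting error only.

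**Figure D2:**
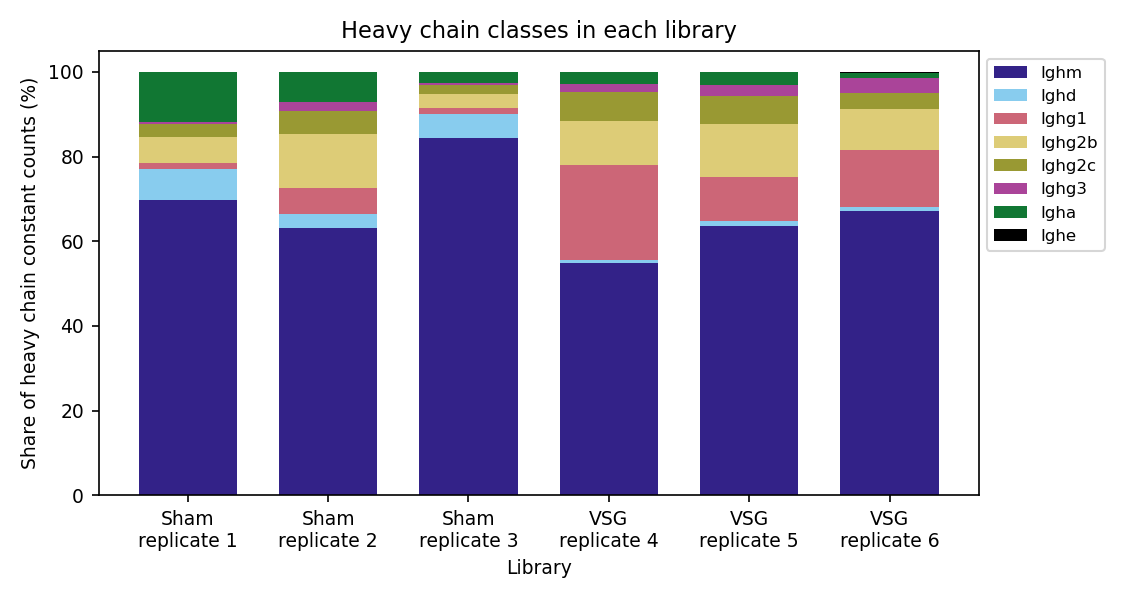
Share of each heavy chain class in the heavy chain constant region counts of each library (percent, stacked bars from 0 to 100). In all 6 libraries Ighm holds the largest part, the Ighd band is thin in the 3 VSG libraries (0.826% to 1.20%) and the 4 IgG bands together take 30.3% to 41.5% there.

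The counts of the variable segments summed to 170, 187 and 196 in sham replicates 1 to 3 and 1829, 1525 and 1367 in VSG replicates 4 to 6, from 7.42 ± 1.13 to 71.1 ± 10.1 CPM. Of the 31 tested, 23 were called higher (5 of 9 heavy chain, 16 of 20 kappa and 2 of 2 lambda segments), where 6.79% of all genes tested were. Their median log2 fold change was 3.60, against 0.028 over all genes tested, but 27 of the 31 passed the filter on low counts only through the VSG libraries and none in all 6, so that a high median was fixed by the filter. The 3 VSG libraries lay above the 3 sham libraries in 95 of the 123 (18.9% of all genes with 10 or more counts). Sham counts per segment were low, with a median of 3 over the 3 libraries summed and a highest sum of 49, and 15 segments had no sham count at all. VSG replicate 4 held the highest level for 65 segments, replicate 5 for 30 and replicate 6 for 25, and a sham library for 3 (Igkv1-88, Igkv9-123 and Ighv1-58, the last 2 named after their values were seen). For every 100 constant region counts variable segments had 15.1, 21.01 and 18.2 counts in sham replicates 1 to 3 and 19.1, 22.3 and 17.2 in VSG replicates 4 to 6, ranges that overlapped. Without sham replicate 3 only 1 variable and 4 constant members were called, and without VSG replicate 6 the numbers were 7 and 5.

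**Figure D3:**
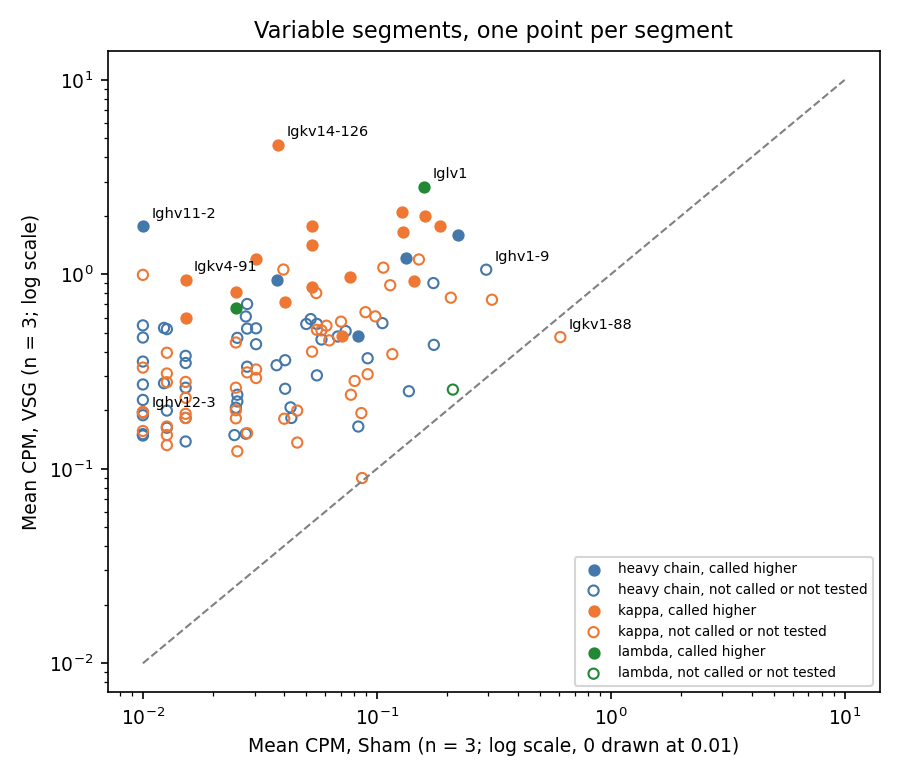
Mean level of each of the 123 variable segments in sham (x axis) and VSG livers (y axis), in CPM on log scales with a mean of 0 drawn at 0.01, and filled markers for segments called higher. All segments but Igkv1-88 lie above the dashed line of equal levels.

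The heavy chain segments with the highest mean CPM over the 6 libraries, a rank set mostly by the VSG libraries, were Ighv6-3, Ighv11-2 and Ighv3-6. Ighv3-6 had 4, 3 and 3 counts in sham and 23, 31 and 27 in VSG libraries, with the smallest SE of the segments tested (log2 fold change 3.15 ± 0.320, adjusted p = 0.00599) and the only called segment that was called in all of its alternatives. Ighv6-3 had 4, 8 and 4 against 38, 45 and 24 counts (2.86 ± 0.438, adjusted p = 0.0142, or 0.0818 when sham replicate 3 was left out and 0.0517 when VSG replicate 6 was). Among kappa segments, Igkv10-96 had exactly 4 counts in each sham library and 60, 49 and 25 in the VSG libraries (3.60 ± 0.425, adjusted p = 0.00792, and 0.0531 without sham replicate 3). Igkv15-103 had 3, 6 and 0 against 81, 19 and 38 counts, so that VSG replicate 4 was several times above replicate 5 (4.05 ± 0.912, adjusted p = 0.0333, called in 5 of 11 alternatives). The lambda segment Iglv1 had 7, 4 and 1 against 91, 35 and 60 counts (4.10 ± 0.629, adjusted p = 0.0142, or 0.0582 and 0.0610 with either of these replicates left out), and Iglv2 had 1, 0 and 1 against 18, 16 and 11 (4.42 ± 0.587, adjusted p = 0.0101, and 0.0588 without sham replicate 3). Iglv3 was different, with 11, 0 and 6 counts in sham and 10, 4 and 3 in VSG libraries, which overlapped and were too low to be tested.

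The 4 segments known from phosphatidylcholine-binding pairs were at or near 0 in sham livers. Gene counts of whole liver do not show which segments were used by the same cell. Pairing, binding and an origin in B1 cells were therefore not measured. Ighv11-2 had no count in any sham library and 21, 57 and 40 in the VSG libraries, at least 14.6-fold higher with the sham level set at 3 counts per library (adjusted p = 0.0140, or 0.0548 with sham replicate 3 and 0.0677 with VSG replicate 6 left out). Igkv14-126 had 0, 0 and 3 against 54, 174 and 85 counts, a ratio of 118 with a 95% counting interval of 40.1 to 576 (log2 fold change 6.69 ± 0.865, adjusted p = 0.00962). All its sham counts were in replicate 3, without which the fitted log2 fold change was 9.75 against sham libraries at 0, which depends on the prior count (adjusted p = 0.0519). Igkv4-91 had 0, 1 and 0 against 17, 30 and 16, a ratio of 71.4 with an interval of 12.4 to 2863 (5.66 ± 0.743, adjusted p = 0.00994, and 0.0582 without sham replicate 3). Ighv12-3 had no sham count and 2, 10 and 1 VSG counts. All 4 segments were highest in VSG replicate 5, the VSG library with the lowest constant region level. A segment of the same family, Ighv11-1, shares 38.6% of the 50-base windows of Ighv11-2 and had no count, and no window of Igkv14-126 or Ighv12-3 was found in a transcript of another gene (5.18% for Igkv4-91).

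As shares of their loci, these segments can be read against the depth of the sham libraries. Ighv11-2, Igkv14-126 and Igkv4-91 were chosen for their large rises and passed the filter on low counts only through the VSG libraries. Ighv12-3 was chosen after its values were seen. Larger shares in VSG libraries were thus partly set by the choice, and the shares are a description. Ighv11-2 held 3.24%, 10.5% and 8.91% of the heavy chain variable counts in VSG replicates 4, 5 and 6. Its 0 of 49, 74 and 70 heavy chain variable counts in the sham libraries allows shares of up to 6.12%, 4.05% and 4.29% when taken as 3 counts of the total (exact two-sided limits 7.25%, 4.86% and 5.13%), which is above the share in VSG replicate 4 and below those in replicates 5 and 6. Igkv14-126 held 0%, 0% and 2.54% of the kappa variable counts in sham (3 counts of the total would be 2.94% and 2.75%, and the exact limits are 3.55% and 3.33%) and 5.09%, 18.8% and 10.1% in VSG libraries. The exact interval of sham replicate 3 (0.527% to 7.25%) overlapped that of VSG replicate 4 (3.85% to 6.59%) but not those of the other VSG libraries. The Igkv4-91 shares of the sham libraries (0% to 0.917%) were all below those of the VSG libraries (1.60% to 3.24%), although the exact intervals of single libraries overlapped. For Ighv12-3 (0.223% to 1.84% in VSG, 0% in sham), a difference in share was not detectable at this depth.

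**Figure D4:**
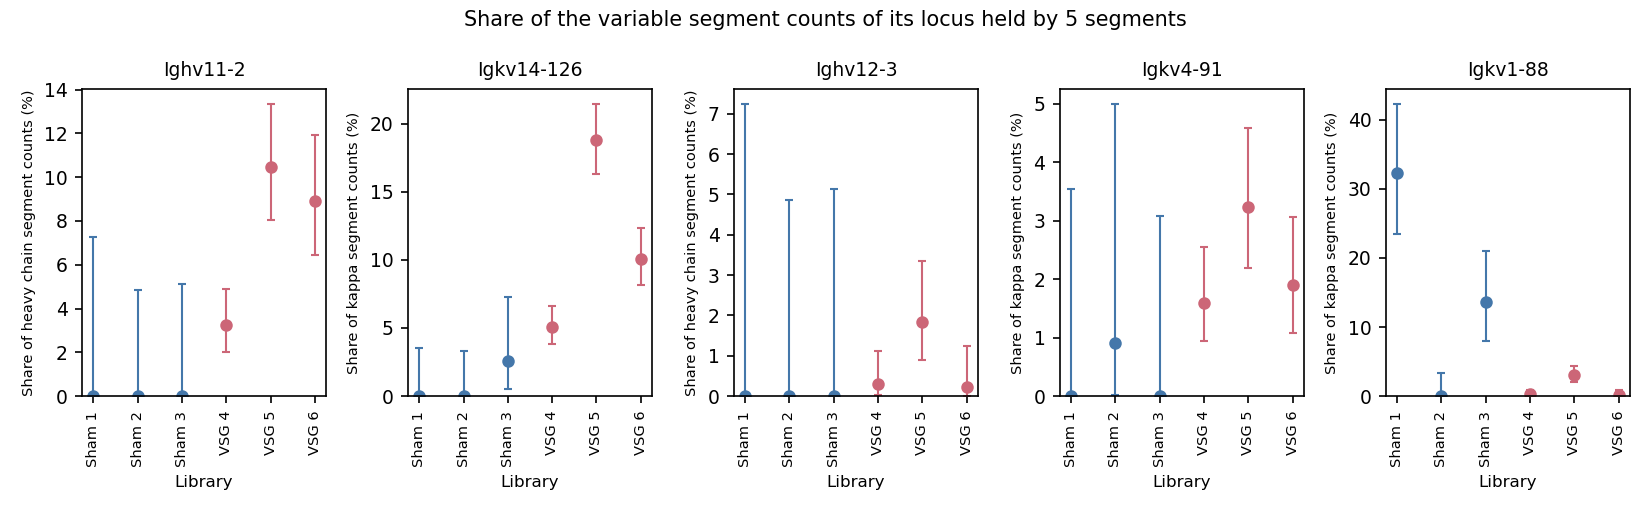
Share of the variable segment counts of its own locus (percent) that each of 5 segments held in each library, with exact 95% binomial intervals for counting error, sham in blue, VSG in red and each panel on its own scale from 0. Igkv14-126 reached 18.8% and Ighv11-2 10.5% in VSG replicate 5, and Igkv1-88 held 32.4% in sham replicate 1 and 13.6% in sham replicate 3.

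The most frequent segment of a library differed among the sham livers. In sham replicate 1 it was Igkv1-88, with 33 of the 170 variable counts (19.4%, exact 95% interval 13.7% to 26.2%), in sham replicate 3 Ighv1-9, with 21 of 196 (10.7%, 6.76% to 15.9%), and in sham replicate 2 Igkv1-110, with 9 of 187 (4.81%). The former pair varied widely among the sham livers: Igkv1-88 had 33, 0 and 16 sham counts, so that it was frequent in replicates 1 and 3 and not seen in replicate 2, and 3, 28 and 2 VSG counts (log2 fold change −0.36, adjusted p = 0.853), and Ighv1-9 had 1, 1 and 21 against 38, 25 and 8 (1.80 ± 1.02, adjusted p = 0.252, and 4.52 without sham replicate 3, which holds most of its sham counts, and 1.27 without VSG replicate 4, neither called). Igkv1-110, at 3, 9 and 1 against 60, 45 and 14 counts, was called higher (3.28 ± 0.805, adjusted p = 0.0411) but in only 5 of 11 alternatives. The top segment was Iglv1 in VSG replicate 4 (4.98%) and Igkv14-126 in replicates 5 and 6 (11.4% and 6.22%).

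The number of segments detected was 59, 76 and 71 in sham replicates 1 to 3 and 122, 119 and 121 in VSG replicates 4 to 6. Rarefied to 170 variable counts, the smallest total, it was 59.0, 72.8 and 65.7 in sham and 75.2, 69.9 and 71.4 in VSG libraries, ranges that overlapped once depth was equal. The inverse Simpson number, the count of equally frequent segments that would give the same concentration, was 18.4, 61.0 and 28.0 in sham and 61.6, 38.5 and 52.6 in VSG libraries, and the 5 most frequent segments held 41.8%, 21.4% and 37.2% against 19.2%, 25.4% and 21.95%. Sham replicates 1 and 3 were the most concentrated, and sham replicate 2 lay within the VSG range on both measures. At least 119 of the 123 segments were detected in each VSG library, which the rule largely fixed, because most counts that kept a segment came from these libraries. Over all variable segments of the table, at unequal depth, 66, 82 and 79 were detected in sham replicates 1 to 3 and 158, 148 and 154 in VSG replicates 4 to 6.

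Genes of the B cell lineage and of immunoglobulin handling, from lists of 60 genes in all, were set beside the immunoglobulins. The B cell list includes Ighd, which is also a constant region member and is described above. Of the 15 plasma cell genes, 3 were called higher and none lower among 13 tested, with a median log2 fold change of 0.66, where 6.79% of all genes tested were called higher and 7.87% lower. Jchain, the chain that joins IgM and IgA into polymers, had 63, 58 and 58 counts in sham and 543, 526 and 495 in VSG libraries. Its replicates were close together in both groups, and its log2 fold change of 3.30 ± 0.126 (adjusted p = 5.73e-04) was near that of Igkc. Xbp1, a transcription factor of the secretory pathway that hepatocytes express as well, rose from 149 to 470 CPM (1.66 ± 0.183, adjusted p = 0.00699), and both were called in all 12 alternatives. Pou2af1, a B cell coactivator of immunoglobulin promoters, was called higher too (1.94 ± 0.406, adjusted p = 0.0284, called in 7 of 12). Prdm1, the regulator of plasma cell identity, had an adjusted p of 0.465 (log2 fold change 0.32). Mzb1, a chaperone for immunoglobulin assembly, had only 0, 2 and 2 against 6, 1 and 3 counts, and Tnfrsf17, the plasma cell survival receptor, had 3 counts in all. Of the 6 plasma cell markers, Jchain was thus called higher, Mzb1 and Tnfrsf17 were near or at the floor, and Prdm1, Derl3 (log2 fold change 1.43, adjusted p = 0.155) and Sdc1, which hepatocytes also express (158 and 142 CPM, adjusted p = 0.306), did not pass the test. Their sum, most of it Sdc1, was 163 to 166 CPM in the sham and 160 to 181 CPM in the VSG libraries.

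Of the 15 B cell genes, 12 were tested and none was called by edgeR, with 1 at an unadjusted p under 0.05 and 1 called by DESeq2. Over all genes edgeR called 14.7% and DESeq2 22.8%, so that no call among so few genes is near the background and is not a contrast with the immunoglobulins. The gene called by DESeq2 (adjusted p = 0.00959) was Cd37, with the largest log2 fold change of the B cell genes tested (1.46, edgeR adjusted p = 0.0675) and groups that overlapped. Cd79a and Cd79b, the signalling chains of the B cell receptor, differed by 0.64 and 0.75 on the log2 scale (adjusted p = 0.330 and 0.285), and Ms4a1, which encodes CD20, by 0.55 (adjusted p = 0.294). Of the 9 genes of the immature B cell and recombination list, 3 were tested and none was called by edgeR, with 1 at an unadjusted p under 0.05 and 1 called by DESeq2. Dntt, an enzyme that adds bases at the joints of rearranging segments, had 63, 42 and 44 counts in sham and 27, 11 and 14 in VSG libraries, lower without overlap (log2 fold change −1.32 ± 0.385, adjusted p = 0.0635). Il7r and Cd93, which other cells of the liver express as well, fell short of the threshold at −0.46 and −0.26 on the log2 scale (adjusted p = 0.263 and 0.383). The others were too low to be tested: Igll1 and Vpreb1, the surrogate light chain, had 2 and 7 counts in all, Vpreb3 had 14 in sham and 7 in VSG libraries, Rag1, a recombinase subunit, had 4, and Vpreb2 and Rag2 had none. The 5 immature B cell markers, most of their level from Dntt, summed to 2.13 to 2.44 CPM in the sham and 0.769 to 1.36 CPM in the VSG libraries. Ung, a DNA repair enzyme of every cell that also acts in class switching, was called higher by 0.63 ± 0.165 (adjusted p = 0.0484, called in 3 of 12 alternatives).

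Receptors and carriers of immunoglobulin were not called in any of the 9 tested of 12, with 1 at an unadjusted p under 0.05 and 1 called by DESeq2, where edgeR called 14.7% and DESeq2 22.8% of all genes. So low a count among 9 genes is near the background. Pigr, which carries IgA and IgM into bile, had mean levels of 1633 (sham) and 1987 CPM (VSG), a difference that did not pass the test (log2 fold change 0.28 ± 0.196, adjusted p = 0.340). Fcgrt, the receptor that recycles IgG, had a log2 fold change of −0.47 ± 0.199 (adjusted p = 0.151), and Fcgr4, an activating IgG receptor of myeloid cells, 0.71 ± 0.346 (adjusted p = 0.195). The gene called by DESeq2 (adjusted p = 0.0172) was Fcgr3, higher without overlap (0.92 ± 0.275, edgeR adjusted p = 0.0672). Of 7 cytokine genes that signal to B cells, 5 were tested and 1 was called higher, where 6.79% of all genes tested were. The 4 not called were Tnfsf13b, Tnfsf13, Cxcl12 and Ccl25 (adjusted p from 0.201 to 0.829). The called gene was Cxcl13, the chemokine that draws B cells into follicles, with 29, 40 and 14 counts in sham and 2165, 218 and 1652 in VSG libraries (5.78 ± 0.978, adjusted p = 0.0171). VSG replicate 5 was several times below the other VSG libraries, and the call held in 8 of 12 alternatives, with an adjusted p of up to 0.104.

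**Figure D5:**
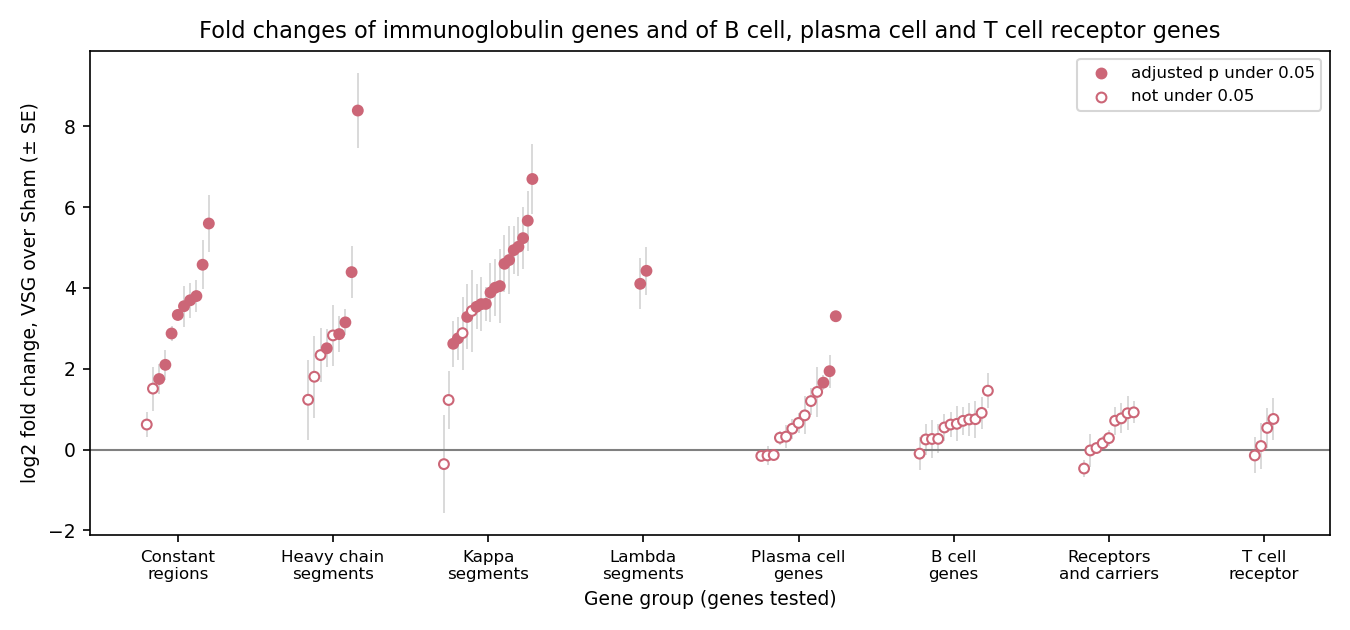
Fitted log2 fold change (VSG over sham, with SE) of every tested gene in 8 groups, with filled markers for an adjusted p under 0.05. Immunoglobulin genes lie mostly between 2 and 6, and none of the 12 B cell (Ighd included), 9 receptor and carrier or 4 T cell receptor genes tested was called, where 6.79% of all genes were called higher; the highest heavy chain segment is Ighv11-2, whose fitted value against sham libraries at 0 depends on the prior count.

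The T cell receptor genes encode the antigen receptors of another lymphocyte. Of 9 genes with 10 or more counts, 4 were tested by edgeR and 0 were called, and 0 had an unadjusted p under 0.05 or were called by DESeq2, with adjusted p from 0.346 to 0.927. With 14.7% of all genes called, none of 4 is near the background and is no contrast with the immunoglobulins. Their constant regions summed to 3.19 ± 0.247 CPM (sham) and 4.08 ± 1.93 CPM (VSG). Some markers of other cell types were called higher as well, where 6.79% of all genes tested were. All 7 granulocyte precursor markers were called higher (summed level 0.731 to 5.84 CPM in sham libraries, 71.1 to 854 CPM in VSG libraries), as were 3 of 6 macrophage markers (205 to 392 against 405 to 845 CPM) and 1 of 4 bile duct markers (7.72 to 18.7 against 20.4 to 49.3 CPM). The 6 B cell markers summed to 3.29 to 6.57 CPM (sham) and 5.43 to 8.46 CPM (VSG), and the 8 T cell markers to 7.16 to 8.36 and 7.61 to 10.99 CPM, with none called. The 6 erythroid markers, a sign of blood in the tissue, summed to 133 to 197 and 184 to 284 CPM, with none called, and 1 of 6 hepatocyte markers was called lower. The 3 VSG libraries stood in the same order, replicate 4 above 6 above 5, in the immunoglobulin constant region sum and in the granulocyte precursor, macrophage, bile duct, B cell, T cell, immature B cell and T cell receptor constant region sums, but not in the plasma cell, erythroid or hepatocyte marker sums. The plasma cell sum was mostly Sdc1, which hepatocytes also express, so its order says little about plasma cells. Jchain, the only plasma cell marker called, did stand in that order, with close values (24.57, 22.48 and 23.61 CPM in VSG replicates 4, 5 and 6). An order of only 3 libraries is easily shared and was not tested. The part of all these cell types in the immunoglobulin values was not tested, and in whole liver more cells of a type cannot be told apart from more RNA per cell.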

How the data were processed

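Liver poly(A) RNA-seq libraries of 3 sham and 3 VSG mice were analysed, 1 mouse per library, grouped by sample title. The deposited table held raw counts of reads for each gene, from strand-specific libraries. Per the labels, the authors checked reads with FastQC 0.10.1, aligned them with STAR 2.6.0 to mm10 and made the counts with featureCounts 2.0.3, while the methods name another featureCounts version. Which annotation and strand setting were used, and how multi-mapped reads were handled, is not given in the sources used here, so counts of similar segments and of overlapping genes are uncertain. The deposited table also gave each gene's summed exon length, used only for FPKM, which depends on how many alternative ends of a constant region are annotated.

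Biotypes were taken from GENCODE M21 (55144 of 55385 genes matched, all 235 immunoglobulin genes with the same start and end). Total counts were 22804397 to 24191778 per library. Library pairs of a group differed by more than counting noise (chi-square per degree of freedom of at least 27.5). After filtering with filterByExpr (at least 10 counts, at least 15 in total), genes were tested in edgeR 4.0.16 (R 4.3.3) with TMM factors (0.897 to 1.15) and the quasi-likelihood test, with group as the only term. P-values were adjusted by Benjamini-Hochberg over all 14454 genes, and adjusted p-values in the text are edgeR's unless another tool is named. CPM use TMM-scaled library sizes, in which the floor of 3 counts is 0.111 to 0.143 CPM. Group values are mean ± SD (n = 3). Shares carry exact Clopper-Pearson 95% intervals. Without molecular identifiers, reads do not stand for independent molecules, so intervals and floors cover counting error only. The edgeR script was tested on simulated counts.

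The members, gene lists and tests were chosen with earlier results of these data known, so counts over members are descriptions and no p is adjusted over a list. Named segments were the 3 with the highest mean level in each locus, the 3 with the largest called rise and the top segment of each library. No segment was called lower. Alternatives were DESeq2 1.42.0, limma-voom (limma 3.58.1), RLE size factors, total counts, a filter of 1 count in all or of 10 counts in every library, and leaving out each library. Promoter sequences of these genes were not analysed here. Values of some single genes of the lists are not reported here.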

Additional observations from a re-analysis of the deposited data

Results flagged for a closer look

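Joining segments, which the rule for members does not take in, also carried a signal. The 14 joining segment genes of the table summed to 10, 19 and 15 counts in sham replicates 1 to 3 and to 125, 106 and 99 counts in VSG replicates 4 to 6. The mean was 0.602 ± 0.251 CPM (sham) and 4.97 ± 0.602 CPM (VSG), a ratio of 8.25, and every VSG library was above every sham library. Their part in the comparison was not tested, and they were noted because they lie outside the genes compared and exceeded the sham level.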

How the results depend on the processing

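Immunoglobulin constant regions called higher numbered 9, and 5 of the 7 that remained testable with at least 10 counts in every library; leaving out a library gave 4 to 9. Variable segments called numbered 23, with 60 of 123 under no filter and 0 of 0 tested with at least 10 counts in every library, and 1 to 33 on leaving out a library. The fewest calls came without sham replicate 3 (4 and 1) and without VSG replicate 6 (5 and 7), where all genes called fell from 2118 to 159 and 210. Over all genes DESeq2 called 3288, and leaving out a library gave 159 to 2732. Over the 6 lists of B cell, plasma cell, receptor and cytokine genes (Ighd left out) 5 of 42 tested were called, 9 with DESeq2 and 2 to 10 on leaving out a library. Over all genes edgeR called 14.7% and DESeq2 22.8%, so the counts over these lists are near the background. For T cell receptor genes the number called was 0 in every alternative. The rarefied number of segments differed by 6.34 between the groups (VSG minus sham), and by 2.93 without sham replicate 1 and 9.82 without sham replicate 2, and the unrarefied number by 52.0. Igkv1-88 turned from a log2 fold change of −0.36 to 0.035 with limma-voom, and ranged from −2.40 (VSG replicate 5 left out) to 0.60 (sham replicate 1 left out), with 0.07 and 0.11 when VSG replicate 4 or 6 was left out. The cause of these shifts was not tested. Of 260 values for the 23 named immunoglobulin genes over the alternatives, 221 kept direction and call, 34 lost the call, 1 gained it and 4 reversed. Low sham counts limit what can be said of single segments. No paired analysis was possible because the groups share no replicate number.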
